A study of Mus musculus and Homo sapiens with 107 samples.

Results

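The group described here is the glucocorticoid receptor gene NR3C1 (ENSG00000113580) and 6 genes known as its targets: FKBP5 (ENSG00000096060), TSC22D3 (ENSG00000157514), PER1 (ENSG00000179094), ZBTB16 (ENSG00000109906), SGK1 (ENSG00000118515) and ANGPTL4 (ENSG00000167772). They were chosen by identifier, with earlier results of these data known, so shares over all genes are given beside them as a description only. All 7 are among the 22842 identifiers present in both deposited gene count tables (24353 rows for A549 and 24019 for H1299). A549 and H1299 are established human cell lines from non-small-cell lung cancers, labelled wild type; both are known to lack functional BRG1. Cells of each line were given BRM014, an inhibitor of the SWI/SNF ATPases BRM and BRG1, at 5 µM for 12 h or DMSO, its solvent, for 12 h, with 3 RNA-seq libraries per line and treatment. DMSO is given as 0.05% in the titles and as 0.5% in the treatment field. The labels name no added glucocorticoid. Both lines were grown with fetal bovine serum, A549 in F12-K and H1299 in RPMI, and the libraries had 9 PCR cycles for A549 and 8 for H1299, so a difference between lines cannot be told apart from one of medium or PCR cycles.

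The glucocorticoid receptor is a nuclear receptor that waits in the cytoplasm in a chaperone complex, binds cortisol or a synthetic steroid, moves to the nucleus and activates genes at glucocorticoid response elements, most of them in enhancers. SWI/SNF complexes are known partners in this step, since they open the chromatin that the receptor uses. FKBP5 encodes a co-chaperone that lowers the receptor's affinity for hormone and so closes a feedback loop. TSC22D3 encodes GILZ, an anti-inflammatory leucine zipper protein, and PER1 encodes a component of the circadian clock. ZBTB16 encodes the zinc finger repressor PLZF. SGK1 is a kinase that regulates ion transport, and ANGPTL4 is a secreted inhibitor of lipoprotein lipase, also known as a target of PPAR receptors and of hypoxia.

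The A549 libraries held 40684360 to 50177678 counts and the H1299 libraries 28412113 to 41780029. Headers of 2 of the A549 BRM014 columns are the same, so these libraries carry no replicate number and are called a and b here. Levels are given as CPM, counts scaled to a common library size with TMM factors, which correct library totals for differences in composition. Changes are log2 fold changes, tested across all genes with edgeR's two-sided quasi-likelihood test and Benjamini-Hochberg adjustment, and genes are said to rise or fall where the adjusted p was below 0.05. Whether replicates were separate cultures is not in the labels, and the p-values therefore measure only how these libraries spread, which may be technical. Each change is relative to the rest of its library, and in bulk RNA fewer cells carrying a transcript and less RNA per cell cannot be told apart.

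In A549, BRM014 changed all 6 of the genes that could be tested: NR3C1, FKBP5, TSC22D3, PER1 and ANGPTL4 rose, and SGK1 fell. In H1299, 3 of the 5 that could be tested changed: PER1 rose, and SGK1 and ANGPTL4 fell. ANGPTL4 had the largest changes of the group, a 1.94-fold rise in A549 and a 2.02-fold fall in H1299. As background, 37% of the 15188 genes tested in A549 passed the same threshold (17.7% upward and 19.4% downward), and 22% of the 14986 tested in H1299 (9.29% upward and 12.7% downward). The median log2 fold change of the tested genes of the group was 0.31 in A549 and 0.04 in H1299, against 0.02 and 0.00 over all genes tested. These medians are over different genes, 6 in A549 and 5 in H1299, where TSC22D3 was not tested. Without TSC22D3 the middle value in A549 was 0.21, that of FKBP5. In A549 the BRM014 and DMSO libraries did not overlap for 6 of 6 genes, where 48.2% of all genes tested did not overlap. In H1299 they did not overlap for 3 of 5, against 35.2%.

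**Figure D1:**
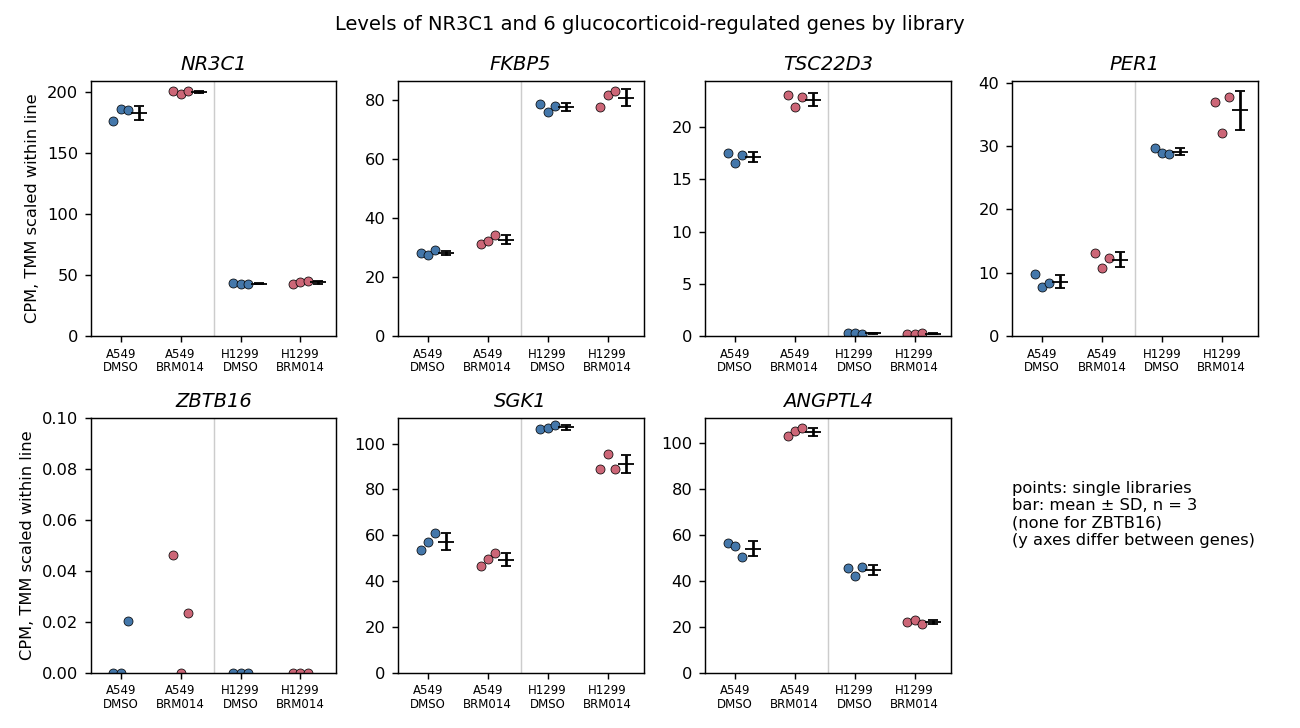
Level of each gene in every library (CPM, TMM scaled within each line, linear axes from 0) for DMSO and BRM014 in A549 and H1299; points are libraries and bars the mean ± SD of 3, left out for ZBTB16. ANGPTL4 is higher with BRM014 in A549 (103 to 107 CPM) and lower in H1299 (21.2 to 22.9 CPM), while ZBTB16 has next to no counts.

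The receptor gene itself changed little. In A549, NR3C1 was at 176, 186 and 186 CPM in DMSO replicates 1 to 3 and at 201, 199 and 201 CPM with BRM014 (libraries a and b and replicate 3). Every BRM014 library was above every DMSO library, by a small margin. The means were 183 ± 5.59 and 200.1 ± 1.09 CPM (SD, n = 3), a rise of 9.53% (log2 fold change 0.13 with an SE of 0.04, adjusted p = 0.0134 in edgeR). A log2 fold change this high or higher was seen for 30.7% of all genes tested in A549. In H1299, NR3C1 was at 43.1, 42.9 and 42.2 CPM with DMSO and at 42.4, 44.2 and 45.2 CPM with BRM014, and the groups overlapped. The change there was 0.04 on the log2 scale with a 95% interval from -0.05 to 0.13 (adjusted p = 0.597 in edgeR). It was 0.02 without BRM014 replicate 3, 0.06 without BRM014 replicate 1 and 0.07 with library totals, and passed in none of these. The A549 call was lost without library a (adjusted p = 0.0527), without library b (0.0504) and without both (0.213, log2 fold change 0.11). It was also lost in a test against a 1.2-fold change, with an adjusted p of 1.

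FKBP5, the feedback co-chaperone, also had a small rise in A549. Its A549 libraries read 27.9, 27.6 and 29.0 CPM with DMSO and 31.3, 32.3 and 34.2 CPM with BRM014, again without overlap. The rise was 15.7%, with means of 28.2 ± 0.746 and 32.6 ± 1.49 CPM (SD, n = 3) and a log2 fold change of 0.21 with an SE of 0.06 (adjusted p = 0.0105 in edgeR). In H1299 FKBP5 was at 78.7, 75.9 and 77.9 CPM with DMSO and at 77.5, 81.7 and 82.9 CPM with BRM014, so the lowest treated library lay within the control range. That log2 fold change was 0.06 (95% interval -0.02 to 0.14, adjusted p = 0.311 in edgeR). The A549 call was lost without DMSO replicate 2 (adjusted p = 0.0547) and in the test against a 1.2-fold change (adjusted p = 1).

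TSC22D3, which encodes GILZ, had enough counts for a test of the treatment in A549 and not in H1299. With DMSO its A549 libraries were at 17.5, 16.6 and 17.3 CPM, and with BRM014 at 23.1, 22.0 and 22.9 CPM. The groups lay well apart, 17.1 ± 0.49 against 22.7 ± 0.615 CPM (SD, n = 3), a rise of 32.2% (log2 fold change 0.40 with an SE of 0.06, adjusted p = 0.000168 in edgeR). In H1299 it had 12, 8 and 4 counts with DMSO and 5, 9 and 8 with BRM014, too few for the filter. The ratio of summed counts per total, BRM014 over DMSO, was 0.878 there (22 against 24 counts, 95% exact binomial interval 0.47 to 1.64, counting error only). That interval also holds the 1.32-fold rise of A549, so a change of this size was not detectable in H1299 at this depth.

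PER1, the clock gene, rose in both lines. In A549 it went from 9.76, 7.70 and 8.35 CPM to 13.1, 10.8 and 12.4 CPM, and in H1299 from 29.7, 28.9 and 28.8 CPM to 37.0, 32.2 and 37.9 CPM. No treated library overlapped the controls of its line, though library b in A549 and replicate 2 in H1299 were the lowest of the treated libraries. The rise was 1.40-fold in A549 (log2 fold change 0.49 with an SE of 0.10, adjusted p = 0.00251 in edgeR) and 1.22-fold in H1299 (0.29 with an SE of 0.06, adjusted p = 0.000163). Replicates of PER1 spread more than counting error alone gives in A549, with coefficients of variation of 12.2% and 9.77% where counts of this size give 5.08% and 4.34%. In H1299 the inhibitor libraries did so too, at 8.65% against 2.84%. In the test against a 1.2-fold change PER1 kept its call in A549 and lost it in H1299 (adjusted p = 1).

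ZBTB16 had next to no counts. In A549 it had 0, 0 and 1 counts with DMSO and 2, 0 and 1 with BRM014, and in H1299 0 counts in all 6 libraries, which allows a level of up to 0.0147 CPM over those libraries (3 counts of their summed total, for counting error only). With both A549 groups at 3 counts or fewer, no fold change is given for ZBTB16.

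SGK1, the kinase, fell by similar amounts in both lines. In A549 its libraries read 53.4, 57.2 and 61.0 CPM with DMSO and 46.4, 49.6 and 52.1 CPM with BRM014, so the groups were apart by a narrow margin. In H1299 they read 106, 107 and 108 CPM against 88.9, 95.6 and 88.9 CPM, a clear gap. The log2 fold changes were -0.21 (SE 0.06, adjusted p = 0.0167 in edgeR) in A549 and -0.23 (SE 0.04, adjusted p = 6.12e-06) in H1299. The A549 call for SGK1 was lost without DMSO replicate 2 (adjusted p = 0.0536), without DMSO replicate 3 (0.075), without library b (0.0588) and without both a and b (0.17), and both calls were lost in the test against a 1.2-fold change (adjusted p = 1 in each line).

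ANGPTL4, the secreted lipase inhibitor, moved in opposite directions in the lines. In A549 it was at 56.7, 55.1 and 50.4 CPM with DMSO and at 103, 105 and 107 CPM with BRM014. The mean was 54.1 ± 3.28 CPM with DMSO and 105 ± 1.82 CPM with BRM014 (SD, n = 3), a rise of 0.96 on the log2 scale with an SE of 0.05 (adjusted p = 3.89e-08 in edgeR). In H1299 it was at 45.8, 42.2 and 46.1 CPM with DMSO and at 22.2, 22.9 and 21.2 CPM with BRM014. There the mean fell from 44.7 ± 2.17 to 22.1 ± 0.826 CPM (log2 fold change -1.01 with an SE of 0.05, adjusted p = 1.87e-17). The gap between treated and control libraries was many times the spread within any group in each line. In A549 2.16% of all tested genes had a log2 fold change as high, and in H1299 1.64% had one as low. Of 13675 genes tested in both lines, 1759 passed in both, and 195 (1.43% of the 13675) rose in A549 and fell in H1299. Of these 195, 2, ANGPTL4 included, moved at least as far as ANGPTL4 in each line, a cut set by its own values.

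**Figure D2:**
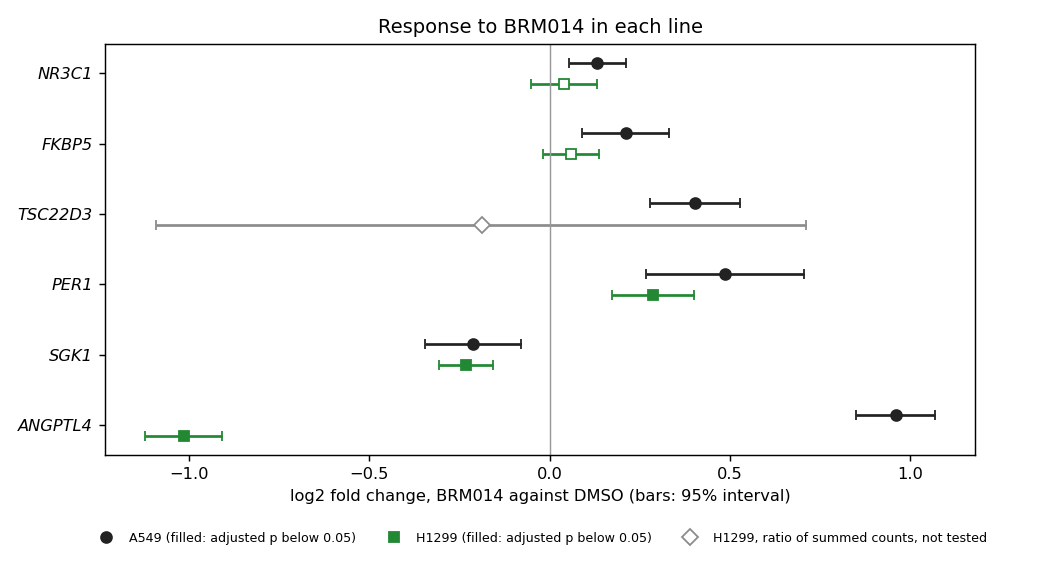
Log2 fold change of each gene with BRM014 against DMSO in A549 (circles) and H1299 (squares), with 95% intervals; filled symbols have an adjusted p below 0.05, and the diamond is the untested ratio of summed counts of TSC22D3 in H1299 with its counting interval. ANGPTL4 lies at 0.96 in A549 and at -1.01 in H1299, and SGK1 lies below 0 and PER1 above 0 in both lines.

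**Figure D3:**
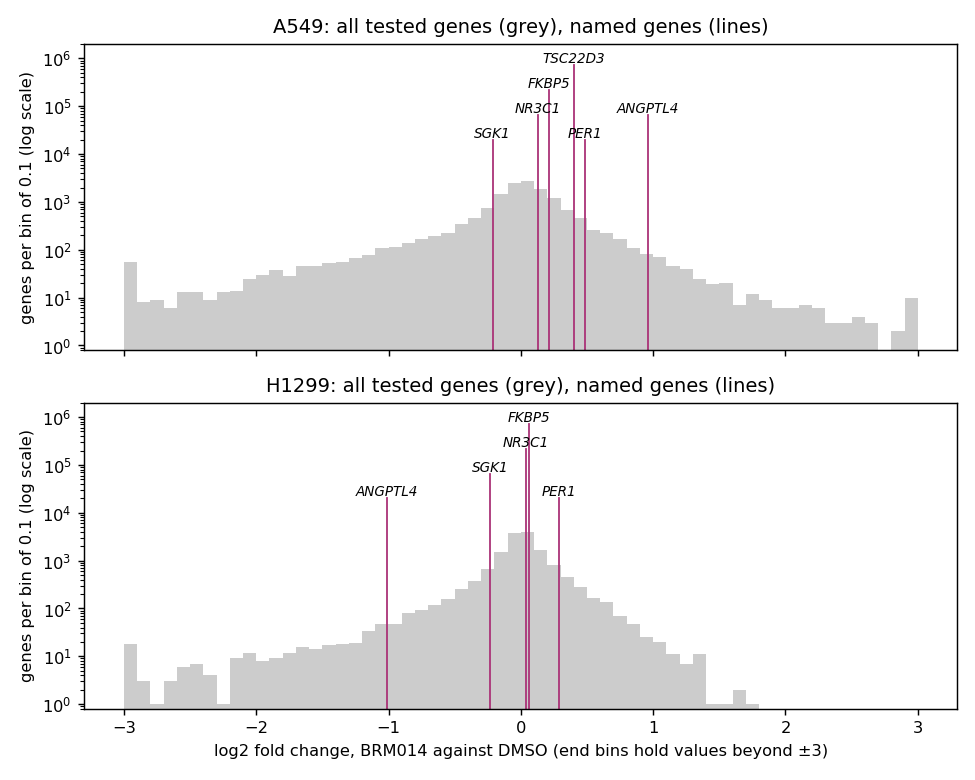
Number of tested genes per 0.1 of log2 fold change in A549 (top) and H1299 (bottom) on a logarithmic axis, with the tested genes of the group as lines; values beyond 3 or -3 are in the end bins. NR3C1 and FKBP5 lie in the dense middle of the distribution in both lines, and ANGPTL4 lies in the upper tail of A549 and the lower tail of H1299.

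The difference between the responses was tested with an interaction term over all 12 libraries, which are the libraries of the tests above. Of the 5 genes that passed the filter on low counts in each line, ANGPTL4 alone passed this test. Its log2 difference, H1299 minus A549, was -1.95 with an SE of 0.07 (adjusted p = 6.61e-15 in edgeR). Of the 16466 genes tested, 19.5% passed, 10.2% with a higher and 9.25% with a lower response in H1299. The 16466 include genes that passed the filter through 1 line only. A difference as low as that of ANGPTL4 was found for 1.5% of the genes tested. For the other 4 the differences did not pass. They were -0.07 for NR3C1 (95% interval -0.19 to 0.05, adjusted p = 0.478), -0.13 for FKBP5 (-0.27 to 0.01, 0.211), -0.17 for PER1 (-0.41 to 0.06, 0.328) and 0.01 for SGK1 (-0.15 to 0.16, 0.982). TSC22D3 entered the fit only through its A549 counts. Its difference of -0.59, with a wide interval from -1.37 to 0.19, is therefore given as a description with no test. With 1 library left out in turn, the negative differences of NR3C1, FKBP5 and PER1 neither passed nor changed sign. They ran from -0.09 to -0.04 for NR3C1, -0.16 to -0.10 for FKBP5 and -0.27 to -0.10 for PER1. The value of TSC22D3 ran from -0.81 to -0.33. NR3C1 and FKBP5 thus passed in A549 and not in H1299 without a difference between the lines being shown.

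Without the inhibitor the lines differed in all 5 genes that passed the filter on low counts in each line. Of the 16466 genes of the joined fit, 85.7% differed (42.9% higher and 42.8% lower in H1299). Libraries of the lines did not overlap for any of the 5, nor for 86.6% of the genes of the joined fit. These shares include genes that passed the filter through 1 line only, so they are not shares over genes like the 5. TSC22D3 passed the filter of this fit over both lines only through its A549 counts, so that it had to differ, and its values are given as a description with no test. On the scaling of the joined 12 libraries, NR3C1 was at 199 ± 7.34 CPM in A549 and 39.8 ± 0.577 CPM in H1299 (SD, n = 3), 5.00-fold higher in A549 (log2 difference, H1299 minus A549, -2.32 with an SE of 0.04, adjusted p = 1.49e-24 in edgeR). TSC22D3 had the widest gap, 18.7 ± 0.473 CPM in A549 against 0.218 ± 0.0778 CPM in H1299. By summed counts per total, with no TMM scaling, TSC22D3 was 70.2 times as high in A549 (2312 against 24 counts, 95% exact binomial interval 47.1 to 110, counting error only). ANGPTL4 was higher in A549 as well, 1.42-fold (log2 difference -0.50, adjusted p = 2.07e-09). The remaining 3 targets went the other way. FKBP5 was 2.35-fold higher in H1299 (72.2 ± 1.61 against 30.7 ± 0.897 CPM, adjusted p = 1.37e-17), PER1 2.89-fold (27.1 ± 0.633 against 9.37 ± 1.09 CPM, adjusted p = 7.68e-15) and SGK1 1.60-fold (99.7 ± 0.641 against 62.3 ± 4.51 CPM, adjusted p = 1.1e-11). A549, with more receptor transcript, had more of 1 of the 4 targets tested in each line and of TSC22D3, and less of 3. When library totals were used instead of TMM, the median over all genes went from 0.02 to 0.24, the 6 directions were kept, and ANGPTL4 was at -0.28.

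**Figure D4:**
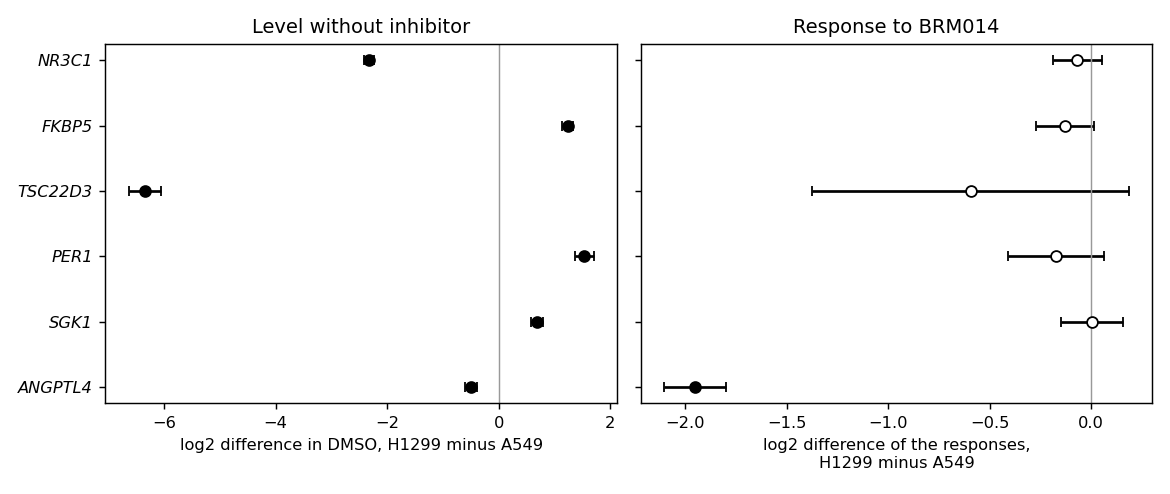
Log2 difference between the lines in DMSO (left) and log2 difference of the responses to BRM014 (right), both H1299 minus A549, with 95% intervals from the joined fit of 12 libraries; filled symbols have an adjusted p below 0.05. The DMSO differences run from -6.35 for TSC22D3, which passed the filter only through A549, to 1.53 for PER1, and ANGPTL4 alone has a response that differs (-1.95). The filled symbol and interval of TSC22D3 on the left are a description and not a test, since the filter fixed its outcome. Its symbol and interval on the right are a description as well.

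Across the 4 groups, both groups of a line stood next to each other in the order of levels for every gene with counts in both lines. For NR3C1 the order was A549 with BRM014, A549 with DMSO, H1299 with BRM014 and H1299 with DMSO, and the 2 H1299 groups overlapped. FKBP5 ran from H1299 with BRM014 through H1299 with DMSO to A549 with BRM014 and A549 with DMSO, with overlap between the 2 H1299 groups. TSC22D3 had both A549 groups, apart from each other, above both H1299 groups, which overlapped. PER1 ran in the order of FKBP5 with no overlap of neighbours, and SGK1 had H1299 with DMSO at the top and A549 with BRM014 at the bottom, also with no overlap. For ANGPTL4 the A549 level was 1.42 times that of H1299 in DMSO and 5.48 times with BRM014, on the joined scaling, and no neighbours overlapped. The corresponding ratio for NR3C1 was 5.01 in DMSO and 5.25 with BRM014, and that of H1299 to A549 for SGK1 was 1.60 in both.

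The pattern of NR3C1 over the 12 libraries, as log2 CPM with each line's mean subtracted, was most like those of 2 genes listed as ENSG00000167380 (Pearson r = 0.968) and ENSG00000285253 (r = 0.966). Among the targets FKBP5 was nearest, with r = 0.846, followed by TSC22D3 at 0.618, PER1 at 0.564, ANGPTL4 at 0.277 and SGK1 at -0.494. These values are descriptions over 12 libraries that share 1 scaling and differ in line, treatment and depth. Treatment was not subtracted, so they also hold the responses to BRM014. The 2 nearest genes had log2 fold changes of 0.23 and 0.38 in A549, and of 0.12 each in H1299. They were picked for likeness to NR3C1 in these same libraries, so these changes are a description with no test. The value of TSC22D3 rests in part on H1299 libraries with 4 to 12 counts.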

How the data were processed

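Total RNA depleted of ribosomal RNA was sequenced from 12 libraries of A549 and H1299 cells, made from 500 ng of RNA with a stranded kit, per the labels' protocols; the other 95 of the 107 samples were not analysed here. The authors deposited raw counts per gene, a table per line, with no normalization. The tools named, per the submitters' processing notes, are STAR 2.7.3a, featureCounts, cutadapt 1.14, Bowtie 1.2.2 and DESeq2, with build hg38. What each did, the annotation, the strand setting and whether introns were counted is not given in the sources used here, so reads of overlapping and antisense genes cannot be assigned with certainty. Spike-ins were added per the labels' protocols, but no row is named for them, and RNA per cell was not measured.

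The analysis used edgeR 4.0.16 in R 4.3.3: filterByExpr (count minimum 10, total 15), TMM, glmQLFit and glmQLFTest over all genes, threshold 0.05. Each line was fitted alone, and the interaction and the DMSO comparison came from a joined fit over shared identifiers. Standard errors are the log2 fold change over the square root of F. In counts simulated from the A549 means, 44.8% of genes changed 1.2-fold, 91% of those changed 1.5-fold and 100% of those changed 2-fold were recovered; for H1299 these were 77.6%, 91% and 100%, for the interaction 28.4%, 76.1% and 90.9%, and for the DMSO line difference 61.2%, 97% and 100%. Among the simulated calls, 4.27% (A549), 5.29% (H1299), 5.11% (interaction) and 8.51% (DMSO line difference) were false. The simulations changed 66 or 67 genes per fold change and drew libraries independently. None of these genes was low in counts on average over the libraries of its comparison. For the interaction, a changed gene could still be low in either line. In the data 37% (A549), 22% (H1299) and 85.7% (DMSO line difference) of genes passed. The recovered and false shares therefore describe the simulated setting and not the calls in the data. Alternatives were other scalings, DESeq2 1.42.0, limma-voom (limma 3.58.1), other filters and thresholds, and leaving out libraries.

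The members and lists were chosen with earlier results of these data known. All 7 members are named, with the 2 genes most like NR3C1. The name tables at hand were for mouse and matched 0 identifiers, so lists of receptor chaperones, coregulators, further targets and cell type markers, given by symbol, were not tested, the line labels were not checked against markers, and no positions or sequences are given. Replicates within each group differed by more than sampling noise (chi-square per degree of freedom 2.2 to 11.1).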

Additional observations from a re-analysis of the deposited data

Results flagged for a closer look

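The response of ANGPTL4 to BRM014 differed between the lines in the interaction test (log2 difference -1.95, H1299 minus A549, adjusted p = 6.61e-15 in edgeR). It rose in 3 of 3 A549 libraries relative to all controls and fell in 3 of 3 H1299 libraries. Over 21 alternatives the difference ran from -1.99 to -1.90 and passed the threshold in each.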

How the results depend on the processing

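Of 386 recomputed values of single genes, 365 kept their direction and their side of the threshold, 16 lost their call and 5 changed sign. The 386 include 14 of the TSC22D3 difference in DMSO, whose outcome the filter fixed, and 21 of its interaction, given as a description. The threshold of 0.01 and the test against a 1.2-fold change reuse the main log2 fold changes. They could therefore not change a direction or add a call, so genes not called in the main test kept their label there in advance. All sign changes were those of the SGK1 interaction, which was not called: -0.0342 with library totals, -0.0428 without A549 DMSO replicate 3, -0.0396 without library a, -0.0368 without H1299 BRM014 replicate 2 and -0.0667 without libraries a and b. Without single libraries it ran from -0.0428 to 0.058. The lost calls were those of NR3C1, FKBP5 and SGK1 in A549 and of PER1 and SGK1 in H1299. In A549, 3 genes passed at an adjusted p below 0.01 and 3 in the test against a 1.2-fold change (TSC22D3, PER1 and ANGPTL4 in both), where the main test gave 6; in H1299 the latter gave 1, ANGPTL4, where the main test gave 3. With any single library left out there were 4 to 6 called genes in A549, 3 in H1299 and 1 for the interaction. The 5 genes that passed the filter in each line stayed called in the DMSO comparison. TSC22D3 is not counted there, because the filter fixed its outcome. Leaving out libraries a and b together, chosen after seeing the data, gave 4 in A549, with 1 BRM014 library assumed to vary like the controls. The replicate number as a replicate block gave 3 genes in H1299, as without it. Same-numbered libraries deviated with correlations of -0.024, -0.0282 and 0.00768 over all genes tested, so no pairing by number was seen. A weak pairing could be missed with 3 libraries per group. No paired analysis was run for A549 or the joined fit because 2 columns carry no number of their own. In A549 the chi-square per degree of freedom was largest between DMSO replicates 1 and 3 (9.99). Among the BRM014 libraries of A549 it was largest between library a and replicate 3 (11.1). Whether A549 libraries share a replicate effect across treatments was not tested. Library totals raised the share of all called genes that were higher from 47.7% to 60.9% in A549 and from 42.2% to 58.4% in H1299. Depth limits TSC22D3 in H1299 and ZBTB16 in both lines.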
